A study of Mus musculus with 18 samples.

Results

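Liver gene expression was compared between 5 female LL and 5 female PP mice, which are 10 of the 18 mice sequenced in the series. PP mice carry Gckr-446P, the mouse form of glucokinase regulatory protein (GKRP) with proline at residue 446, and LL mice are the knock-in with leucine at that residue (Gckr-446L). The members were taken from the labels as the female libraries, 1 library per mouse, all on standard chow and otherwise untreated. By the labels the PP mice were 9, 9, 11, 12 and 14 weeks old and the LL mice 11, 11, 13, 13 and 14 weeks old, while the text on the design gives 14 weeks for every mouse. The knock-in allele is in every cell of the mouse, on a C57BL/6N background, so the liver was not the only organ that carried it. The other 8 libraries, from 4 male PP and 4 male LL mice, shared the estimate of the spread between mice and were used for the comparison between the sexes.

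GKRP is a regulatory protein of the hepatocyte nucleus that takes part in the control of glucose uptake and glycolysis after a meal, and it responds to metabolites of glucose and fructose. Glucose metabolites in turn drive transcription of glycolytic and lipogenic genes through the factor ChREBP.

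The codon that differs between PP and LL mice lies near the end of an exon. In the GENCODE M39 annotation of GRCm39, codon 446 of transcript Gckr-202, which encodes 623 residues, is at chr5:31466275-31466277 on the plus strand in exon 15. The stretch shown runs on into the next exon after the codon. The reference coding sequence around it is shown because it is the only designed difference between the groups, with the proline codon in capitals.
Gckr: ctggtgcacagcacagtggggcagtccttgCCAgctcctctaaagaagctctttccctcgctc

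The values are read counts per gene, estimated by Salmon per transcript, summed to genes and divided by a size factor for each library (normalized counts). The libraries held 5612280 ± 656383 estimated counts in PP and 4775316 ± 780824 in LL mice (SD, n = 5 each), and this difference was smaller than the spread would allow to be called (two-sided exact permutation test, p = 0.111). Fragment length, taken as the transcript length less the effective length that Salmon lists, was 458, 384, 631, 369 and 397 bases in the PP libraries. It was 294, 290, 376, 247 and 251 bases in the LL libraries. The groups overlapped only at LL 3 and PP 4, and the means of 448 ± 108 and 292 ± 52.1 bases differed (SD, n = 5 each, two-sided exact permutation test, p = 0.0159). Mitochondrial genes took 10.2 ± 1.11% of the counts in PP and 12.5 ± 1.34% in LL libraries (SD, n = 5 each, two-sided exact permutation test, p = 0.0317). That p was 0.0635 when PP 1, PP 2, PP 5, LL 1, LL 3 or LL 4 was left out. Shorter fragments, a larger mitochondrial share and the LL genotype therefore moved together, and their parts in the results below cannot be told apart by this design. Age was 11 ± 2.12 weeks in PP and 12.4 ± 1.34 weeks in LL mice (SD, n = 5 each, two-sided exact permutation test, p = 0.294).

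**Figure D1:**
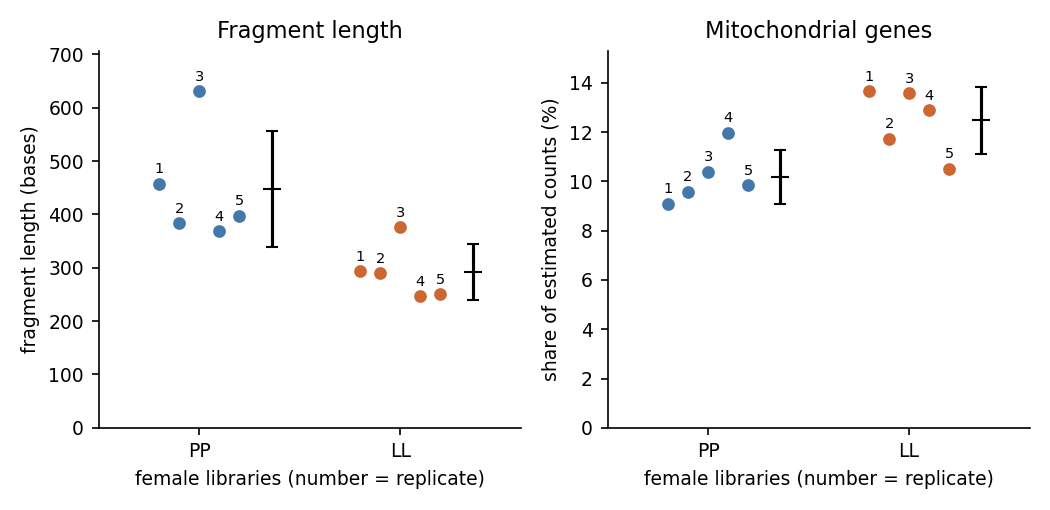
Fragment length in bases (left) and share of estimated counts on mitochondrial genes in percent (right) of the 10 female libraries, numbered by replicate, with the mean and SD of each group as bars. The LL libraries lie lower for fragment length (247 to 376 against 369 to 631 bases) and mostly higher for the mitochondrial share, where PP 4, the highest PP library at 12%, lies within the LL range.

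1 PP library, PP 4, lay with the LL libraries on the main axis of variation. On the first principal component of the 500 most variable genes, which carried 21.4% of the variance, the LL libraries lay between 6.49 and 27.3 and PP 4 at 19.25, while the other PP libraries lay between -34.4 and -9.51. PP 4 also had the shortest fragments and the largest mitochondrial share of the PP group. Counts of changed genes are therefore given with and without PP 4. The count without PP 4 is a description, since PP 4 was picked for lying near the LL group. Over all genes kept it was not the PP library least like the others. Chi-square per degree of freedom was 12.3 between PP 2 and PP 4, the closest PP pair, and 37.9 to 46.8 in the pairs with PP 3. The libraries were those of liver by the hepatocyte markers, since Alb, which encodes albumin, was at 516706 to 724059 normalized counts in the female libraries.

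Gckr, which carries the edit, is described first. The gene (ENSMUSG00000059434, chr5:31454787-31484658) was at 520, 677, 552, 779 and 526 normalized counts in PP and at 587, 570, 585, 691 and 526 in LL mice. The groups overlapped and the log2 fold change of LL against PP was -0.05 ± 0.13 (SE, adjusted P = 0.915 by DESeq2). The count of the whole gene does not tell the alleles apart, so it is no check of the edit.

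Across 10938 genes tested, 72 differed between LL and PP mice at an adjusted P under 0.05 by DESeq2, with LL at 1.3 times PP or more or at 0.7 times or less (differentially expressed genes, DEGs). This is 0.658% of the genes tested, of which 8598 received an adjusted P. Of the DEGs, 40 were higher in LL mice (0.366%) and 32 were lower (0.293%). An unadjusted p below 0.05 was reached by 1427 genes (13.0%). edgeR gave 1490 such genes. The DEGs comprised 62 protein-coding genes, 8 pseudogenes and 2 long non-coding RNAs. In 8 of them all 5 libraries of a group were at 0, and these are described separately. The other 64 were mostly modest changes, with a median fold of 1.53 for the 37 that rose (range 1.31 to 2.90) and 0.574 for the 27 that fell, and 11 changed at least 2-fold. The 5 LL values lay wholly above or below the 5 PP values for 35 of the 72 DEGs, against 291 of all genes tested (2.66%), which is given as a description because the same values made the call. LL 3 had fragments within 30 bases of those of PP 2, PP 4 and PP 5. Its value lay beyond all 3 of them, in the direction of the call, for 53 of the 64 DEGs (33 of the 37 that rose and 20 of the 27 that fell), and in the direction of their own fold change for 37.5% of all genes. The call itself used these libraries, so these counts are a description.

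Sod1, Fth1 and Hjv were among the genes that rose. Sod1 (chr16:90017408-90027657), the cytosolic superoxide dismutase, was at 2743, 2874, 3074, 3588 and 2680 normalized counts in PP and at 5033, 3791, 3980, 5343 and 4455 in LL mice. All 5 LL mice lay above all 5 PP mice, with a log2 fold change of 0.60 ± 0.14 (SE, adjusted P = 0.00581 by DESeq2), although 49.6% of the 31-base words of its transcripts also occur in other genes. Fth1, the heavy chain of the iron store ferritin, was at 4738 to 6606 in PP and 7252 to 8850 in LL mice (log2 fold change 0.53 ± 0.12, SE, adjusted P = 0.00224 by DESeq2). Hjv, the hemojuvelin co-receptor that hepatocytes need to make hepcidin, was at 112 to 148 in PP and 166 to 217 in LL mice (0.55 ± 0.13, SE, adjusted P = 0.00634 by DESeq2). Neither gene had overlapping groups. Gamt, which completes creatine synthesis and was picked after its values were seen, rose from 529 to 876 normalized counts on average but with overlapping groups.

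Ube2l6, Psme1, Snx3 and AW112010 rose as well. Ube2l6 (chr2:84628630-84640783), the conjugating enzyme for ubiquitin and the ubiquitin-like ISG15, was at 229, 235, 269, 242 and 222 normalized counts in PP and at 384, 338, 306, 365 and 345 in LL mice. The groups were separate, with a log2 fold change of 0.54 ± 0.10 (SE, adjusted P = 0.000138 by DESeq2). Psme1, a subunit of the PA28 proteasome activator that was also picked after its values were seen, was at 178, 225, 233, 296 and 196 in PP and at 350, 305, 264, 426 and 392 in LL mice. Here PP 4 exceeded LL 3, and the log2 fold change was 0.62 ± 0.15 (SE, adjusted P = 0.0126 by DESeq2). Snx3, a sorting nexin of the retromer pathway, was at 153 to 180 in PP and 234 to 267 in LL mice (0.56 ± 0.12, SE, adjusted P = 0.0011 by DESeq2). The long non-coding RNA AW112010 was at 293 to 408 in PP and 443 to 596 in LL mice (0.47 ± 0.11, SE, adjusted P = 0.00977 by DESeq2). Lgals4, a galectin, 1810055G02Rik and Bphl, a serine hydrolase, were also among the higher DEGs of adequate count with the smallest adjusted P. Their mean levels went from 93.6 to 158, from 99.8 to 183 and from 531 to 743 normalized counts, and only Bphl had groups that did not overlap.

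Among the genes that fell, Narf (chr11:121127532-121149337), which encodes a nuclear protein that binds prelamin A, had the strongest call of those detected in both groups. It was at 200, 138, 178, 125 and 200 normalized counts in PP and at 101, 93.9, 82.9, 93.8 and 83.2 in LL mice. Every LL mouse lay below every PP mouse, with a log2 fold change of -0.89 ± 0.16 (SE, adjusted P = 5.77e-05 by DESeq2). Afm, afamin, a vitamin E-binding plasma protein of the albumin family, was at 1662, 1605, 1372, 1254 and 1394 in PP and at 1186, 949, 942, 1067 and 933 in LL mice. These groups were also separate, with a log2 fold change of -0.52 ± 0.11 (SE, adjusted P = 0.000521 by DESeq2). Adgrf1, an adhesion G protein-coupled receptor, was at 43 to 61.8 in PP and 8.13 to 30.6 in LL mice (-1.52 ± 0.29, SE, adjusted P = 0.000171 by DESeq2).

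Egfr, Klb, Ern1, Ptpn3 and Sash1 also fell. Egfr (chr11:16702198-16868158), the epidermal growth factor receptor, was at 3014, 1639, 2007, 1488 and 2120 normalized counts in PP and at 1372, 1320, 852, 352 and 752 in LL mice. The groups did not overlap, with a log2 fold change of -1.14 ± 0.31 (SE, adjusted P = 0.0335 by DESeq2). Klb, the co-receptor of the hormones FGF21 and FGF15, was at 55.3 to 93.7 in PP and 24.7 to 52.9 in LL mice (-0.81 ± 0.23, SE, adjusted P = 0.0456 by DESeq2). Ern1 (chr11:106283818-106378686), the IRE1 sensor of unfolded protein in the endoplasmic reticulum, was at 145, 140, 112, 116 and 185 in PP and at 104, 86, 101, 67.9 and 65.7 in LL mice. Its groups were separate, with a log2 fold change of -0.71 ± 0.17 (SE, adjusted P = 0.00581 by DESeq2). The tyrosine phosphatase Ptpn3 was at 76.1 to 102 in PP and 49.2 to 62.8 in LL mice, and the scaffold Sash1 at 63.4 to 86.4 and 39.5 to 51.9. Their log2 fold changes were -0.76 ± 0.16 and -0.80 ± 0.17 (SE, DESeq2 adjusted P = 0.0011 and 0.00113). Psme4, the PA200 activator of the proteasome, Pgap1, which remodels GPI anchors, and the repressor Hbp1 fell with overlapping groups, and in each the lowest PP value was that of PP 4.

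Of the bile acid enzymes, Cyp39a1, an oxysterol hydroxylase, was at 111, 181, 107, 98.7 and 203 normalized counts in PP and at 57.4, 60.3, 95.9, 107 and 72.2 in LL mice. PP 4 and LL 4 crossed, and the log2 fold change was -0.84 ± 0.23 (SE, adjusted P = 0.039 by DESeq2). Cyp8b1, which makes the precursor of cholic acid, was at 503, 31.8, 432, 631 and 286 in PP and at 1009, 989, 1328, 1056 and 1127 in LL mice. All LL mice lay above all PP mice, yet its log2 fold change of 1.55 ± 0.50 missed the threshold (SE, adjusted P = 0.0938 by DESeq2).

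**Figure D2:**
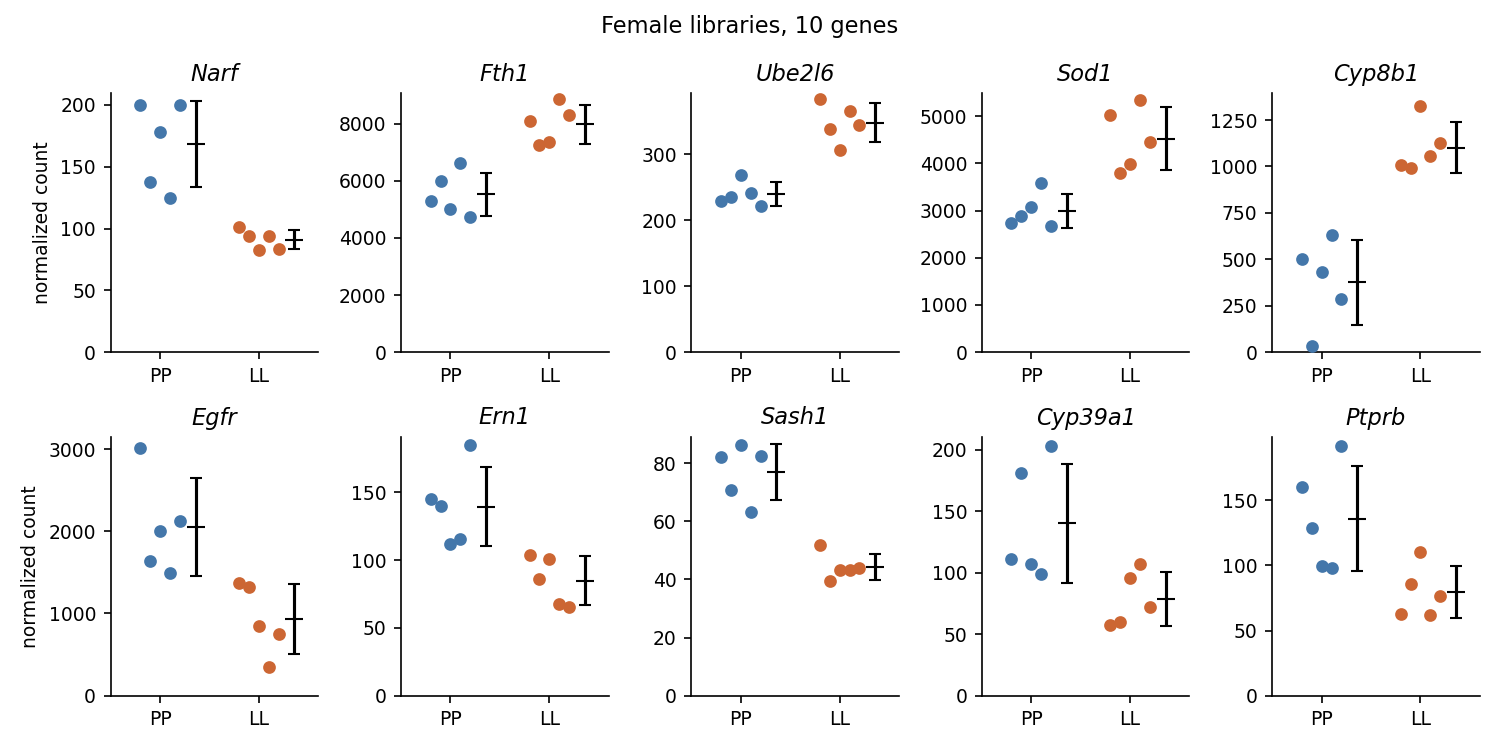
Normalized counts of 10 genes in the 5 female PP and 5 female LL libraries, drawn in order of replicate number, with the mean and SD as bars and each axis from 0. PP and LL values do not overlap in the panels of Narf, Fth1, Ube2l6, Sod1, Cyp8b1, Egfr, Ern1 and Sash1 and overlap for Cyp39a1 and Ptprb, and Cyp8b1 was not a DEG.

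The DEGs with the smallest adjusted P were genes that share their sequence with others. Ahcyl (chr16:45973348-45975440), an intron-less copy of Ahcy, was at 71.1, 524, 1012, 164 and 257 normalized counts in PP mice and listed at 0 in all 5 LL mice. With 3 counts taken as the floor of each library, its mean was at least 134-fold lower in LL mice (DESeq2 adjusted P = 1.37e-09). In males Ahcyl was at 312, 1337, 1121 and 1501 normalized counts in PP and at 1725, 0, 1227 and 742 in LL mice. It was thus listed at 0 in 1 of the 4 male LL mice too, male LL 2, whose fragments were 203 bases long. Of the female libraries, LL 3 with fragments of 376 bases was at 0 and PP 4 with 369 bases at 164. How fragment length bears on these values was not tested. Ahcy, the S-adenosylhomocysteine hydrolase gene on chromosome 2, was at 6590, 7766, 6329, 9171 and 8206 in PP and at 6857, 6701, 10810, 13686 and 11491 in LL mice (log2 fold change 0.38 ± 0.19, SE, adjusted P = 0.332 by DESeq2). The reference coding sequences of the pair differ at 4 of 1296 bases (99.7% identical), and 95.6% of the 31-base words of Ahcyl also occur in other genes. The stretch from base 415 to base 474 of the coding sequence, which holds 2 of the differences (in capitals), shows how few reads can tell the copies apart.
Ahcy: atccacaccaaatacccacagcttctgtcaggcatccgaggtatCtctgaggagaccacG
Ahcyl: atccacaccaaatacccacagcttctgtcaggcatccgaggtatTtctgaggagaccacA

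Values of the other DEGs with a group at 0 came from few libraries. Nme1nme2, a read-through of the neighbours Nme1 and Nme2, was at 452, 196 and 486 normalized counts in PP 1, PP 2 and PP 3. It was at 0 in the other female libraries, PP 4 and PP 5 among them. Its mean was at least 75.0-fold lower in LL mice against the same floor. With fragment length as a term its DESeq2 adjusted P was 0.75. Rpl23a-ps3 had all its female counts in LL 2 (121), Gm10163 in LL 3 (30.9) and Tmed2b in PP 4 (98.7). Of the DEGs with counts in both groups, Slc25a13, a mitochondrial aspartate-glutamate carrier picked after its values were seen, rested likewise on PP 5 at 1037, with the other 9 libraries between 5.87 and 13.6. For 25 of the 72 DEGs more than 20% of the 31-base words occur in transcripts of other genes, 8 of them the genes with a group at 0, and their values depend on how Salmon divided shared reads. Of those described above these include Sod1 (49.6% of words shared), Psme1 (37.1%) and Hbp1 (25.4%), whose values are uncertain to that extent. Mug2, a murinoglobulin with near copies (65.1% of words shared), is 1 of these, picked after its values were seen, and fell from a mean of 3685 to 2040 normalized counts with overlapping groups.

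Fold changes in female mice followed the length of the transcript. The median log2 fold change was 0.25 for 1182 genes with transcripts under 1000 bases, 0.12 from 1000 to 2000, 0.02 from 2000 to 3000, -0.06 from 3000 to 5000 and -0.17 for the 1656 genes of 5000 bases or more. Of the shortest genes 78.4% were higher in LL mice, and of the longest 23.4%. Spearman's rho between the log2 fold change and the length was -0.40 across 10938 genes, which are not independent and share the same libraries. Transcripts of the DEGs that rose were short (median 1196 bases) and those of the DEGs that fell were long (4344), against 2633 for all genes, and none of the DEGs of 5000 bases or more rose while 12 fell. By library, the median deviation of the shortest genes from the PP mean was between 0.10 and 0.39 on the log2 scale in the LL libraries, 0.22 in PP 4 and between -0.24 and 0.06 in the other PP libraries. It was lowest in PP 5, with fragments of 397 bases, and not in PP 3, which had the longest at 631 bases.

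**Figure D3:**
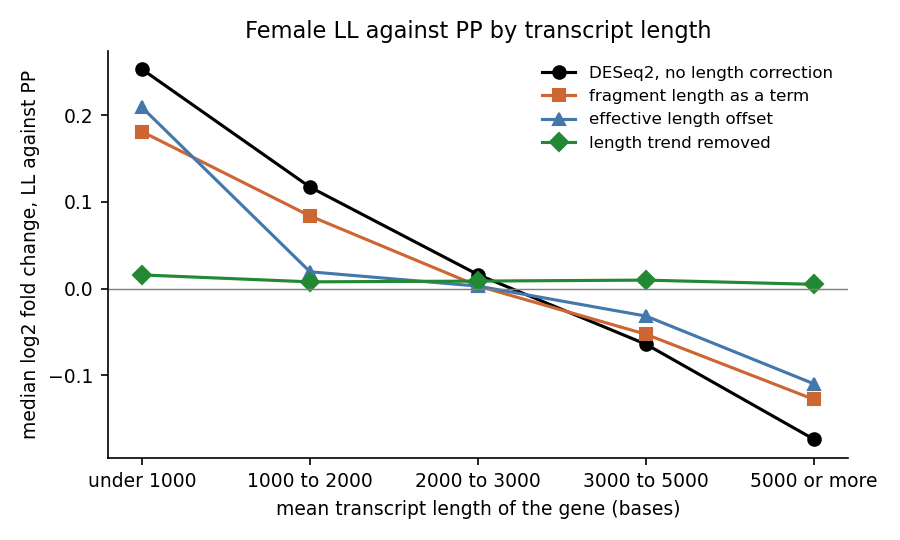
Median log2 fold change of female LL against PP mice (vertical axis) in 5 bins of the mean transcript length of a gene in bases (horizontal axis), for the DESeq2 fit with no length correction and 3 corrections. The uncorrected line falls from 0.25 to -0.17, and a fragment length term or an effective length offset leaves a shallower slope. Removal of the trend within each library brings every bin to within 0.02 of 0. This follows by construction, since the trend was fitted to these same genes.

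Taking up these measures changed which genes were called. With fragment length as a term 14 genes were DEGs (0.128%), 10 of them among the 72. These included Narf, Ube2l6, Adgrf1, Afm, Degs1l and the copied genes Ahcyl, Gm10163, Rpl23a-ps3 and Tmed2b. With the length trend of each library removed 41 genes were DEGs (0.375%), 33 of them among the 72, and 25 of these 33 had counts in both groups (15 higher, 10 lower). Narf (-0.79, DESeq2 adjusted P = 9.85e-05), Ube2l6 (0.41, 0.0233), Afm (-0.57, 0.00019), Ern1 (-0.52, 0.0497) and Cyp39a1 (-0.86, 0.0448) kept the call by that route. Egfr (-0.93, DESeq2 adjusted P = 0.296), Sash1 (-0.61, 0.0629) and Klb (-0.75, 0.0629) lost it, and Sod1 (0.35, 0.00528) and Fth1 (0.32, 0.0222) passed the adjusted P but not the fold limit. With the effective length offset Fth1 was at 0.04 (DESeq2 adjusted P = 0.98) and Sod1 at 0.56 (0.448). Narf kept the call with the offset (-1.01, DESeq2 adjusted P = 0.00366). Ube2l6 (0.40, 0.473), Afm (-0.50, 0.0567), Ern1 (-0.60, 0.143) and Cyp39a1 (-0.75, 0.278) lost it. Ern1 and Cyp39a1 were not called with fragment length as a term either (DESeq2 adjusted P = 0.0972 and 0.131). edgeR called 3 genes, Narf, Sash1 and Ptpn3 (0.0274%). Without PP 4, DESeq2 called 270 genes (2.47%), which included 61 of the 72. Narf and Ahcyl were DEGs under 22 of 23 other settings of the fit, 1810055G02Rik under 20 and Ube2l6 under 19, and no gene was a DEG under all 23.

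**Figure D4:**
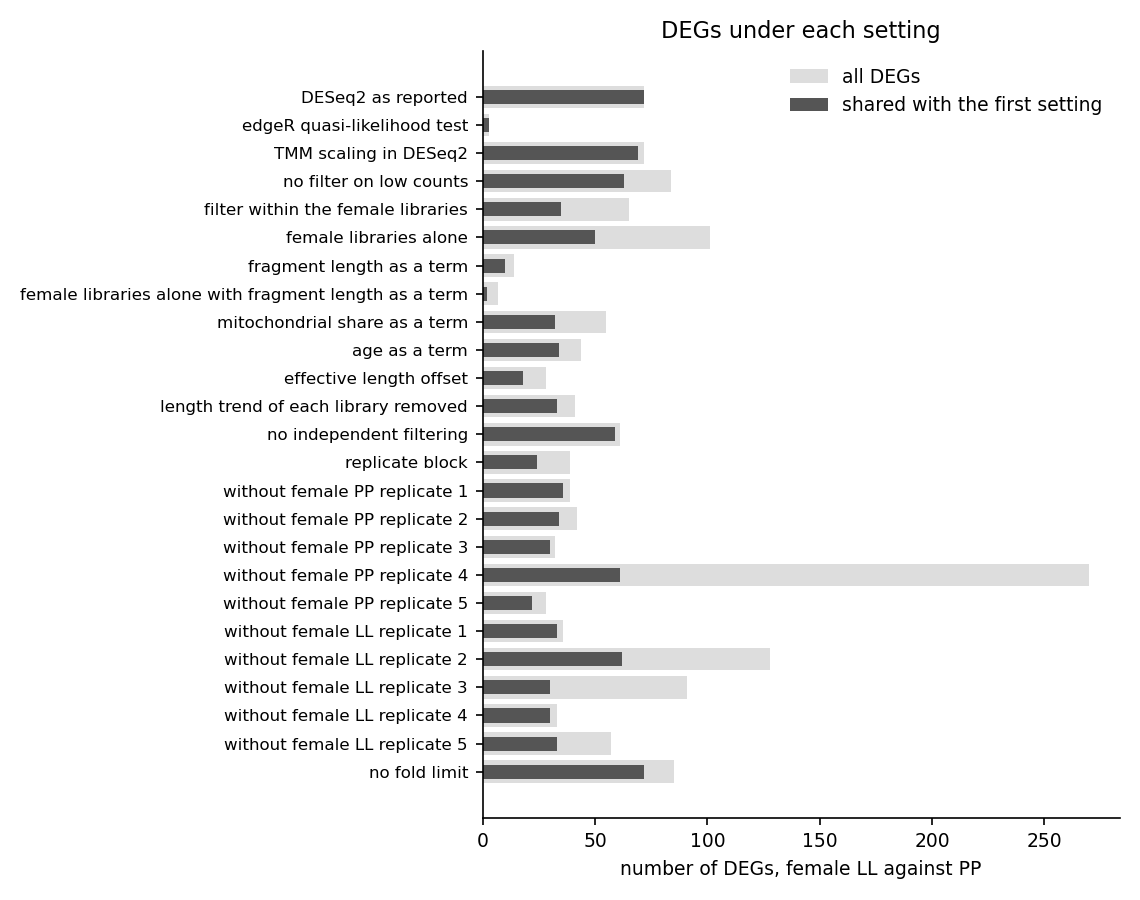
Number of DEGs between female LL and PP mice (horizontal axis) under the reported DESeq2 fit and each alternative setting, with the part shared with the 72 reported DEGs in dark grey. The count goes from 3 with edgeR to 270 without PP 4.

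Gene lists were described by how many measured members were DEGs and by their median log2 fold change, beside a median of 0.01, 0.658% DEGs and 13.0% at an unadjusted p below 0.05 over all genes tested. None of the lists of glucose metabolism held a DEG, which at that share of DEGs is no result about these lists. None of 19 genes of the glycolysis list reached an unadjusted p below 0.05 (median -0.01), and 1 of 17 ChREBP targets did. Of 15 genes of gluconeogenesis and fasting, only Pdk4, which blocks pyruvate dehydrogenase, did (DESeq2 adjusted P = 0.295), with LL 3 at 246 normalized counts against 13.6 to 54.8 in the other 9 libraries. The 16 lipogenic genes had a median of -0.07 with 3 higher and 2 lower at an unadjusted p below 0.05. Among these, the log2 fold changes were 0.52 ± 0.20 for Elovl5, 0.64 ± 0.29 for Thrsp, -0.75 ± 0.28 for Lpin1 and -0.45 ± 0.17 for Acaca (SE), with DESeq2 adjusted P between 0.156 and 0.264. Of 24 cholesterol synthesis genes (median 0.05), Ebp came nearest to a call at 0.33 ± 0.10 (SE, adjusted P = 0.077 by DESeq2).

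Members of the lists of fat oxidation and oxidant defence had mostly positive fold changes. Of 20 PPARa targets 16 had a positive log2 fold change (median 0.24), and Acadl, the long-chain acyl-CoA dehydrogenase, was at 863 to 988 normalized counts in PP and 1077 to 1278 in LL mice (0.28 ± 0.09, SE, adjusted P = 0.0796 by DESeq2). Of 21 antioxidant enzymes 18 were positive (median 0.25), of which Sod1 alone was a DEG, and Prdx6, Sod2 and Cat had values of 0.25 to 0.29 with DESeq2 adjusted P of 0.128 to 0.304. These enzymes are short, and with the length trend removed their median was 0.09 while that of the PPARa targets was 0.18. With fragment length as a term these medians were 0.17 and 0.12. Of 75 nuclear-encoded subunits of the respiratory chain 68 were positive (median 0.28), 21 of them and 1 of the others with an unadjusted p below 0.05 and none a DEG, and the median became 0.04 with the trend removed. The 15 genes of the mitochondrial genome had a median of 0.35 (0.12 with the trend removed). The 78 cytosolic ribosomal protein genes had a median of 0.14, which turned to -0.11 with the trend removed. At the other end, 21 of 23 chromatin and nuclear scaffold genes, which are long (median 8896 bases), were negative with a median of -0.21, and their median became 0.01. Removal of the trend flattens any difference that follows transcript length, whether of the libraries or of the genotype. These shifts therefore do not tell which it was.

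Fold changes were mostly negative in the unfolded protein response and the male-biased genes, which growth hormone pulses sustain in males. Of 21 genes of the unfolded protein response 18 were negative, with a median of -0.31 that was -0.30 with the length trend removed and -0.38 with fragment length as a term. Ern1 was its DEG, and the chaperones and folding enzymes Dnajc3 (-0.50 ± 0.19, SE), Canx (-0.35 ± 0.15) and Pdia6 (-0.46 ± 0.20) had DESeq2 adjusted P of 0.175 to 0.233. Of 17 insulin and growth factor receptors 12 were negative, Egfr and Klb as DEGs and Il6st and Lifr at an unadjusted p below 0.05 (DESeq2 adjusted P = 0.125 and 0.163), but the median of -0.09 turned to 0.06 with the trend removed. The 19 male-biased liver genes had a median of -0.65, 16 negative and none a DEG, and this median was -0.33 with fragment length as a term and turned to 0.53 in the female libraries alone with that term. Their levels differed widely within PP, since Cyp2d9 was at 969 and 639 normalized counts in PP 1 and PP 3 and at 219 to 342 in the others, against 93.5 to 356 in LL mice. The 19 female-biased genes had a median of 0.03 and none reached an unadjusted p below 0.05. Of the periportal and hepatocyte genes, Cps1, the first enzyme of the urea cycle, had an adjusted P of 0.0284 by DESeq2 but a log2 fold change of -0.50 ± 0.13 (SE), just short of the fold limit.

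Markers of hepatocytes and of the other liver cell types mostly had negative fold changes. Of 10 hepatocyte markers 8 were negative (median -0.222, and -0.254 with the length trend removed and -0.245 with fragment length as a term). Of these, 3 were at an unadjusted p below 0.05 and none was a DEG. Their sums of 803565 to 914033 normalized counts in PP and 675556 to 806127 in LL mice overlapped. Of 11 endothelial markers 10 were negative (median -0.55, and -0.48 with the length trend removed and -0.55 with fragment length as a term), 8 at an unadjusted p below 0.05 and 1 as a DEG. That gene, Ptprb, the vascular endothelial tyrosine phosphatase, was at 160, 129, 99.9, 97.8 and 192 normalized counts in PP and at 62.8, 86, 110, 61.7 and 76.6 in LL mice (-0.77 ± 0.21, SE, adjusted P = 0.0335 by DESeq2). LL 3 lay above PP 3 and PP 4. All 12 Kupffer cell and macrophage markers were negative (median -0.33, and -0.47 with the trend removed), 4 at an unadjusted p below 0.05 and none a DEG. With fragment length as a term their median was -0.15, and the log2 fold changes of Cd5l and Lyz2 went from -0.54 to -0.14 and from -0.70 to -0.39. Their summed level was 1394 to 1726 normalized counts in PP and 833 to 1332 in LL mice, which did not overlap, and that of the endothelial markers was 666 to 1238 and 496 to 896. In whole liver, fewer cells of a type and less RNA per cell cannot be told apart. Of 10 stellate cell and fibroblast markers 8 were negative (median -0.36, and -0.23 with fragment length as a term), and the sums of 1070 to 1353 and 813 to 1324 overlapped. The globin genes and the other blood cell markers had a median of 1.08 in 5 genes, from LL 1, LL 2 and LL 5, whose sums of 4879 to 6055 stood against 1125 and 1420 in LL 3 and LL 4 and 1282 to 2275 in PP mice. Of the cholangiocyte, lymphocyte and neutrophil markers only 1 each passed the filter on counts, and the untested ones had at most 8 counts in a female library. Of 10 pancreas and adipose markers 3 passed the filter, and Prss1, Adipoq, Cfd and Retn were at 0 in every female library. Car3, a carbonic anhydrase of adipose tissue, muscle and liver, was at 4989, 6130, 6592, 8982 and 6181 normalized counts in PP and at 10583, 9911, 10729, 14139 and 9938 in LL mice. Its groups did not overlap, and its log2 fold change of 0.75 ± 0.22 just missed the threshold (SE, adjusted P = 0.0533 by DESeq2). Cela1 and Fabp4 had log2 fold changes of -0.34 ± 0.28 and 0.03 ± 0.31 (SE). The sum of the 3 genes was 5090 to 9056 in PP and 9985 to 14192 in LL mice, nearly all of it Car3. How the cell markers bear on the DEGs was not tested. The remaining lists held no DEG, with medians of 0.47 for 5 nuclear long RNAs, 0.15 for 12 pericentral genes, -0.01 for 17 clock genes, -0.12 for 13 periportal genes and -0.13 for 22 acute phase genes.

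**Figure D5:**
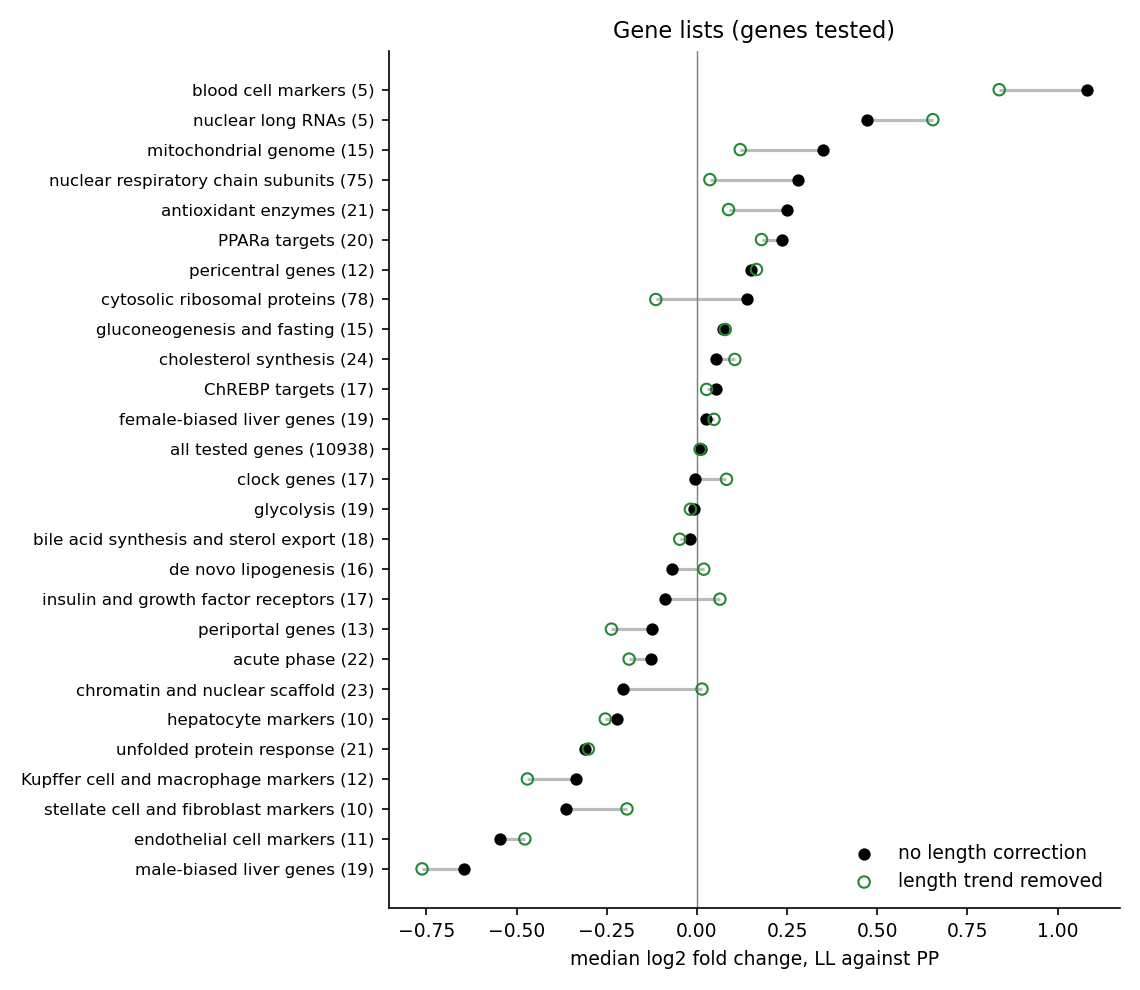
Median log2 fold change of female LL against PP mice for each gene list with at least 5 genes tested (number in brackets), without a length correction (filled) and with the length trend of each library removed (open). Male-biased genes, endothelial, Kupffer cell, stellate cell and hepatocyte markers and the unfolded protein response lie below 0 under both, while ribosomal, respiratory chain and chromatin genes move towards or across 0.

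The genotype difference was compared between the sexes in the same fit. The genotype by sex interaction passed a DESeq2 adjusted P below 0.05 for 13 genes (0.119%), 5 of them female DEGs, while edgeR called 0 and 620 genes had an unadjusted p below 0.05 by DESeq2. Ube2l6 (0.61 ± 0.16, SE, adjusted P = 0.0245) and AW112010 (0.62 ± 0.17, SE, adjusted P = 0.0459) had a higher fold change in females, and Afm (-0.63 ± 0.16, SE, adjusted P = 0.0245) a lower one. Ahcyl was also among them. With fragment length as a term 17 genes passed, which shared 3 with the 13, Ahcyl among them (0.000205), while Ube2l6, Afm and AW112010 did not (0.0737, 0.0737 and 0.185). For 50 of the 64 DEGs with counts in both groups, the log2 fold change had the same sign in male mice, 28 of the 37 that rose and 22 of the 27 that fell. The same share over all genes tested was not taken. Male fold changes also followed length, with a median of 0.06 for transcripts under 1000 bases and -0.06 at 5000 or more. How transcript length bears on the shared signs was not tested. Egfr had a male log2 fold change of -0.96 ± 0.34, which was not called (SE, adjusted P = 0.175 by DESeq2). Its interaction of -0.18 ± 0.46 was not called either (SE, adjusted P = 0.928 by DESeq2). With that SE the comparison does not settle whether the sexes differ. Cyp39a1 (0.67 in males) and Ptprb (0.28) had the opposite sign there. Their interactions of -1.51 ± 0.38 and -1.05 ± 0.33 (SE) received no adjusted P in this fit and had unadjusted p-values of 6.23e-05 and 0.00124 by DESeq2. With fragment length as a term their adjusted P was 0.0349 for Cyp39a1, which passed, and 0.294 for Ptprb.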

How the data were processed

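Total liver RNA of 18 mice was sequenced, 1 library per mouse, and the 10 female libraries are described here. The authors checked reads with FastQC, did not trim them, and quantified transcripts with Salmon 1.4.0 (version per the submitters' processing notes) against GENCODE release M26 of GRCm39. The deposited values are expected counts (estimated reads per transcript), with TPM, length and effective length. The deposited TPM values were not used for any test. Expected counts were summed to 52230 genes through GENCODE M39, which held 137570 of 139225 transcripts and at least 99.76% of the counts of each library, and rounded to whole numbers. A gene was kept where 4 libraries or more reached 10 counts. DESeq2 1.42.0 in R 4.3.3 fitted the 4 sex and genotype groups over all 18 libraries by its Wald test with Benjamini-Hochberg adjustment, as the study's methods use DESeq2 and the same fold limits. edgeR 4.0.16 was the alternative test. The length trend was removed by a lowess curve (span 30%) within each library, fitted to the same genes. A genotype effect that follows transcript length is removed with it. Totals of 3982871 to 6540424 counts limit precision for low genes. The labels give 1 mouse per library, and p-values measure the spread between these mice.

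Genes named were Gckr, the 10 higher and 10 lower DEGs of mean at least 50 with the smallest adjusted P, DEGs also called by edgeR or with the fragment length term, up to 4 members per list, and Narf, Egfr, Ern1, Sash1, Ptpn3, Cyp39a1, Sod1 and Ahcyl. The members and lists were chosen with earlier results of these data known. Some genes that this rule names are not reported here. The DESeq2, edgeR and trend-removed fits were also run on simulated counts with the same spread for every gene. That run did not cover the other settings, and its outcome is not used here. Other settings left out single libraries, changed scaling or filters, added age, mitochondrial share or fragment length, or used a replicate block.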

Additional observations from a re-analysis of the deposited data

Results flagged for a closer look

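In 86 groups of 5 libraries searched, 9 held a library that stood apart from the other 4. In PP mice these were Hbp1 in PP 4 (192 normalized counts), Psme4 in PP 4 (293), Tmed2b in PP 4 (98.7) and Slc25a13 in PP 5 (1037). In LL mice they were AW112010 in LL 4 (596), Car3 in LL 4 (14139), Slc25a13 in LL 4 (13.6), Gm10163 in LL 3 (30.9) and Rpl23a-ps3 in LL 2 (121). A chance rate of about 1 in 20 groups does not apply, since genes were named partly by their calls in these same libraries. For Tmed2b, Gm10163 and Rpl23a-ps3 all counts of the group came from 1 library, which stands apart by construction. The number flagged is therefore a description.

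The LL against PP difference itself differed between females and males for 13 genes by DESeq2 and for 0 by edgeR, with 620 at an unadjusted p below 0.05 by DESeq2. Among them, the female log2 fold change was higher than the male one for Saa2 (4.28), Saa1 (3.62), Rn18s-rs5 (1.5), AW112010 (0.62), H2-K1 (0.62) and Ube2l6 (0.61). It was lower for Ahcyl (-10.9), Cyp4a14 (-3.87), Scd1 (-1.66), Afm (-0.63), Uox (-0.62) and Alb (-0.61). For the acute phase genes Saa1 and Saa2 the difference lay in males, where PP mice were at 3990 ± 5760 and 1987 ± 3349 normalized counts (SD, n = 4), while the female groups had means of 37.3 to 98.1. Cyp4a14, a fatty acid hydroxylase, was at 5083 ± 1023 (PP) and 5506 ± 1305 (LL) normalized counts in females (SD, n = 5 each). In males it was at 74.6 ± 61.1 (PP) and 1178 ± 994 (LL), so its difference lay in males too (SD, n = 4 each). The male log2 fold changes of Scd1, Uox and Alb were 1.47, 0.376 and 0.372, and the female ones -0.186, -0.246 and -0.235.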

How the results depend on the processing

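The count of 72 DEGs went to 3 by edgeR, 14 with fragment length as a term and 7 in the female libraries alone with that term. It went to 44 with age as a term, 28 with the effective length offset and 41 with the length trend removed. Of the 44, 34 were among the 72. With age as a term Afm (-0.444) missed the fold limit, and Egfr and Klb lost the call (DESeq2 adjusted P = 0.0912 and 0.0885). The female libraries alone, with no added term, gave 101 DEGs, 50 of them among the 72. Leaving out 1 library gave 28 (without PP 5) to 270 (without PP 4) DEGs. It also gave 39, 42, 32, 36, 33 and 128 without PP 1, PP 2, PP 3, LL 1, LL 4 and LL 2. As alternatives chosen after seeing the data, it gave 9 to 56 with the fragment length term (11 and 16 without PP 1 and PP 5, 16, 12 and 16 without LL 2, LL 4 and LL 5, and 56 without PP 4) and 20 to 106 with the length trend removed (22, 22 and 21 without PP 2, PP 3 and PP 5, 25, 40, 40 and 31 without LL 1, LL 2, LL 3 and LL 5, and 106 without PP 4). Spearman's rho of -0.40 with transcript length went to -0.17 with no filter, -0.28 with the fragment length term, -0.20 with it in females alone and -0.17 with the offset. It was 0.003 with the trend removed, which follows by construction, and between -0.44 and -0.30 without 1 library. The interaction count of 13 was 0 by edgeR and 3 to 27 without 1 library (3 without PP 3, 7 without PP 2 or LL 4, 6 without LL 1 and 27 without LL 3). The mitochondrial difference of 2.29 percentage points stayed between 2.00 and 2.78. The log2 fold change of Gckr was -0.105 to 0.057 without 1 library, and positive without PP 4. It was not called under any of these. Of 566 alternative values of 27 named genes, 423 kept sign and side of the threshold, 142 lost the call and 1 reversed. Alternatives in which a gene received no adjusted P are not among the 566. Some of the 27 genes were named because edgeR or the fragment length term also called them, which raises the share kept. The cause of the differences between settings was not tested.

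With the replicate block 39 genes were DEGs, 24 of them among the 72. The labels share replicate numbers between groups but name no pairs, and within each group the numbers follow age. Deviations of same-numbered PP and LL libraries correlated at 0.15, 0.15, 0.05, 0.15 and -0.07, and 3 of 5 libraries correlated best with their own number. These values do not settle whether the numbers mark pairs. The reported fit did not treat them as pairs.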

Other observations

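Interferon-inducible and antigen presentation genes were not among the lists of the report and were gathered after Ube2l6 and Psme1 had been seen, so their counts are a description only. Of 27 such genes, 25 had a positive log2 fold change in female LL against PP mice, with a median of 0.31 beside 0.01 over all genes tested, and of 0.20 with the length trend removed. Ube2l6 and Psme1 were the DEGs. H2-K1, the heavy chain of a classical class I molecule, was at 4518 ± 337 normalized counts in PP and 5872 ± 787 in LL mice (SD, n = 5 each), just under the fold limit. B2m, its light chain, was at 7626 ± 836 in PP and 10058 ± 1795 in LL mice (SD, n = 5 each, log2 fold change 0.40 ± 0.14, SE, DESeq2 adjusted P = 0.115). The summed level of the 27 genes was 16122 to 19558 in PP and 20726 to 26875 in LL mice, which did not overlap. In males the median was -0.03.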
